A study of Mus musculus with 11 samples.

Results

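Rpl3l and Rpl3 encode paralogous proteins of the large ribosomal subunit, and this account follows both across 11 mouse heart arrays. All probe sets whose annotation gives 1 gene symbol, Rpl3l or Rpl3, were sought among the 45101 on the array. Rpl3l had 1 such probe set and Rpl3 had 0, so 1 gene of the 18194 with a single-symbol probe set met the rule. Rpl3 is listed only on probe sets shared with pseudogenes. The brighter of them lists Rpl3 and the pseudogene Gm12816, and the accession given for it is a RefSeq messenger RNA of Rpl3. It is called the Rpl3/Gm12816 probe set here, it cannot separate the gene from its pseudogene, and it was taken up after its values were seen. A further probe set lists Rpl3, Gm12816 and Gm5879.

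The arrays hold left ventricle RNA from C57BL/6 mice. The labels name no exact ages, call the arrays of a group biological replicates, and give 4 groups: HMGN5 transgenic adult (3 arrays), control adult (3), HMGN5 transgenic newborn (3) and control newborn (2). Transgenic mice carried a mouse Hmgn5 cDNA with a FLAG tag behind a floxed LacZ cassette and the CAG promoter, which is active in most cells, and alphaMHC-cre, active in heart muscle cells, removed the cassette. Controls were labelled wild-type, so cre and the Hmgn5 transgene differ together between the groups and cannot be told apart. HMGN5 is a nucleosome-binding protein that loosens chromatin, and the study asked what its overexpression in the heart does to gene expression.

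Ribosomal protein L3 sits in the core of the large subunit near the site of peptide bond formation and is made in nearly all cells. RPL3L is a close relative found mainly in heart and skeletal muscle, where it takes the place of RPL3 in part of the ribosomes after birth. In mice, loss of Rpl3l is accompanied by more RPL3, and growth of overloaded skeletal muscle by less Rpl3l and more Rpl3.

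Rpl3l lies on chromosome 17 and Rpl3 on chromosome 15 by RefSeq's gene annotation of GRCm38.p6. The RefSeq promoter table, which gives 250 bases before to 50 bases after each annotated start, matched Rpl3l, with 2 starts 4859 bases apart. The window below is shown because Rpl3l is a muscle gene and it holds the one match in either Rpl3l promoter to the binding motif of MEF2, a family of muscle transcription factors. The motif is in capitals, and it ends 114 bases before the second start.
Rpl3l, chr17:24732552-24732581, plus strand, GRCm38.p6: aaatgtcagcTTAAAAATAGcaccagccct
The MEF2 motif occurred on either strand in 3.19% of the 32851 promoters of this length, and the first Rpl3l start had 0 matches. The serum response factor motif (1.63% of promoters), the TATA box TATAAA (13.6%), the TEAD motif CATTCC (14.7%) and the estrogen-related receptor motif TCAAGGTCA (0.423%) had 0 matches at both starts. The GATA motif GATAA (25.4%) had 1 match at the first start, the NKX2-5 motif TNNAGTG (39.4%) 1 at each start, and the E-box CANNTG (72.3%), which reads the same on both strands and can overlap the others, 4 at the first and 2 at the second. These matches describe letters, and binding was not measured.

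Over 18194 genes, arrays of the same group had pairwise correlations of 0.975 to 0.997. Replicate 3 of both adult groups stood apart in the 18S ribosomal RNA control probe sets, with mean log2 values of 12.18 (transgenic) and 11.89 (control), against 7.64 to 8.58 on the other 4 adult arrays and 10.05 to 10.53 on newborn arrays. Newborn arrays thus lie between the adult sets. What sets the 18S level was not tested, and age cannot be told apart from a difference in array processing, if there was one. For Hmgn5 the values were 8.42 ± 0.25 (log2, SD, n = 3) in transgenic adults and 8.57 ± 0.17 (n = 3) in control adults. In newborns they were 8.56, 8.84 and 8.69 in transgenic hearts, against 8.85 and 8.81 in control hearts, so no transgenic newborn array lay above both controls. It is not given here if its probe set reads the transgene. Directions between genotypes therefore follow the labels alone. The 18 cardiomyocyte markers averaged log2 values of 12.93 to 13.25 on every array, so heart muscle markers were present. This does not show the chamber sampled, and atrial markers, which varied between arrays, are given with the cell markers below.

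Rpl3l was lower in transgenic than in control adult hearts and was low in all newborn hearts. The values are the log2 signals deposited by the authors, for which the submitters' processing notes name RMA, and array medians of 5.12 to 5.18 show that a shift common to all genes would not be seen. Rpl3l and Rpl3 were chosen by these same log2 values, in all 4 groups, so they are given as a description with no test. In adults, Rpl3l read 8.26, 8.85 and 8.61 in transgenic hearts, against 10.60, 11.51 and 11.11 in control hearts. The groups did not overlap, and the nearest arrays lay 1.75 apart. Over all genes, 7.94% were lower in transgenic adults without overlap. The transgenic mean was 8.57 ± 0.30 and the control mean 11.07 ± 0.46 (SD, n = 3 each), a difference of -2.50 (SE 0.25 from the residual SD of all 11 arrays), which is 5.67-fold lower. This was rank 12 from the lowest change among 18194 genes. Control replicate 1 and transgenic replicate 1 had the lowest values of their groups.

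Both 18S sets of adult arrays gave the same difference. Replicate 3 alone gave -2.50, and replicates 1 and 2 gave -2.50 on average.

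In newborns, Rpl3l read 5.05, 5.45 and 5.29 in transgenic hearts, against 5.66 and 5.67 in control hearts. All transgenic arrays lay below both controls, by at least 0.22, and 9.83% of all genes were lower without overlap in this comparison. The difference was -0.40 (SE 0.28), and the number of arrays limits its precision. These values stood at the 48.7 to 57.3 percentile of their arrays, and no detection call was used here, so whether Rpl3l was above background in newborns was not tested. In adults it stood at the 86.4 to 89.8 percentile of transgenic arrays and the 97.0 to 98.4 percentile of control arrays.

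Adult hearts read higher than newborn hearts for Rpl3l in both genotypes. The difference was 3.31 (SE 0.25) in transgenic hearts and 5.41 (SE 0.28) in control hearts, that is 9.90-fold and 42.4-fold. The ages did not overlap in either genotype, and of all genes 30% in transgenic and 35.1% in control hearts were higher in adults without overlap. In controls Rpl3l was rank 2 from the highest among 18194 genes, and in transgenic hearts rank 32. On the log2 scale the transgenic age difference was 61.2% of the control one. The order of the group means was transgenic newborn, control newborn, transgenic adult and control adult, and the newborn pair was the closest of these neighbours. The genotype difference in adults minus that in newborns was -2.10 (SE 0.38). Newborn values lay near the array median, so if they were background, the folds, the 61.2% and the -2.10 would depend on its level.

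The Rpl3/Gm12816 probe set ran the other way. In adults it read 12.50, 12.27 and 12.41 in transgenic hearts, against 11.51, 11.44 and 11.47 in control hearts. The adult groups did not overlap, with 0.76 between the nearest arrays, and 10% of all genes were higher without overlap. The difference was 0.92 (SE 0.055), or 1.89-fold. Replicate 3 alone gave 0.94, and replicates 1 and 2 gave 0.91 on average. In newborns it read 12.89, 12.87 and 12.85 in transgenic hearts, against 12.84 and 12.78 in control hearts, and the difference of 0.06 (SE 0.062) was about as large as its error. The genotype difference in adults minus that in newborns was 0.86 (SE 0.083).

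Newborn hearts had the highest values of this probe set. Adult minus newborn was -0.48 (SE 0.055) in transgenic hearts and -1.34 (SE 0.062) in control hearts, so the transgenic age difference was 35.9% of the control one on the log2 scale. The ages did not overlap in either genotype, and of all genes 24.7% in transgenic and 28.5% in control hearts were lower in adults without overlap. The order of the group means was control adult, transgenic adult, control newborn and transgenic newborn. The newborn groups differed by 0.06 without overlap, with 0.01 between the nearest arrays. Their SDs were 0.022 (transgenic, n = 3) and 0.04 (control, n = 2), and 11.1% of all genes were higher without overlap in that comparison. All values lay at or above the 98.3 percentile of their array, where the highest probe set read 14.21 to 14.37.

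The dim probe set listing Rpl3, Gm12816 and Gm5879 read 5.12, 4.94 and 5.04 in transgenic adults, against 4.44, 5.15 and 4.48 in control adults. These groups overlapped, and the difference was 0.34 (SE 0.18). It read 6.34 to 6.46 in transgenic newborns and 6.24 to 6.41 in control newborns, above every adult array. It shared the direction with age and did not separate the adult groups. With both shared probe sets averaged, the age difference in transgenic hearts was -0.92.

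The within-array difference, Rpl3l minus the Rpl3/Gm12816 probe set, combined both movements. Its zero has no meaning, since levels of different probe sets are not on 1 scale, and only its change between arrays can be read. It was -4.24, -3.42 and -3.80 in transgenic adults, against -0.90, 0.07 and -0.36 in control adults, -7.84, -7.43 and -7.56 in transgenic newborns, and -7.17 and -7.11 in control newborns. Transgenic adults thus lay between newborns and control adults, with no array in another group's range. The transgenic minus control difference was -3.42 (SE 0.29) in adults and -0.47 (SE 0.33) in newborns. From newborn to adult the difference changed by 3.79 (SE 0.29) in transgenic hearts and by 6.74 (SE 0.33) in control hearts, 56.2% as much in transgenic hearts. Each genotype's age difference and each age's genotype difference share arrays, so these values are not independent of one another.

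**Figure D1:**
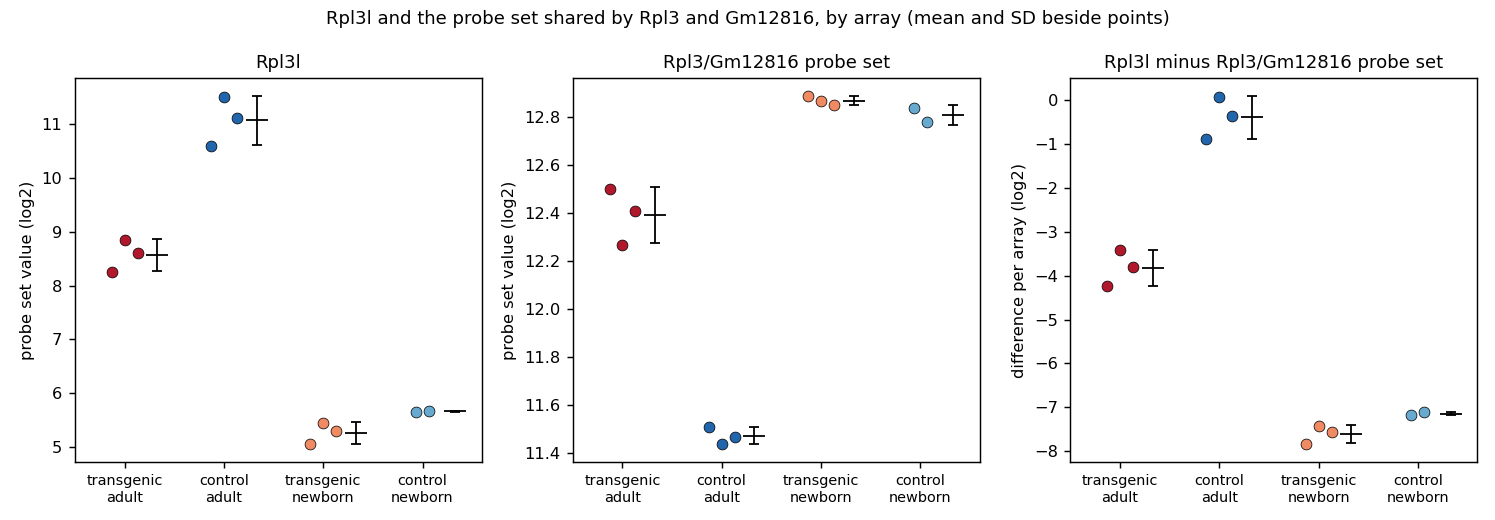
Log2 values of Rpl3l (left), of the probe set shared by Rpl3 and Gm12816 (middle) and of their within-array difference (right) for each array, by group on the horizontal axis, with the mean and SD beside the points. Rpl3l is lower in transgenic adults (8.26 to 8.85) than in control adults (10.60 to 11.51), while the Rpl3/Gm12816 probe set is higher (12.27 to 12.50 against 11.44 to 11.51), and the vertical scales differ between panels.

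The other protein genes of the ribosome were examined to see whether they moved with the pair. Each gene was tested with limma on the 11 arrays, which sets a difference against a spread pooled over the 4 groups. It was counted as called when its Benjamini-Hochberg adjusted p, taken over 18194 genes, was below 0.05. Newborn arrays of a group correlated at 0.994 to 0.997 and adult arrays at 0.975 to 0.992, so the pooled spread is not that of adults alone. Of 79 listed large and small subunit genes other than Rpl3, 44 had a single-symbol probe set. In adults, 0 of the 44 were called between transgenic and control hearts and 2 had an unadjusted p under 0.05, where 4.16% of all genes were called higher and 2.93% lower, 7.09% together. Their changes ran from -0.19 to 0.30, with a median of 0.07 against 0.00 over all genes. The widest was Rps27, a small subunit gene, at 0.30 (SE 0.13, limma adjusted p = 0.248), and among large subunit genes Rpl13a, at 0.22 (SE 0.096, adjusted p = 0.241). Some of the 44 probe sets were dim. Rps27 read 6.06 to 6.71 over all arrays, and the lowest of the 44 averaged 2.8, where array medians were 5.12 to 5.18. Dim probe sets can show little change, which limits the count of 0. In newborns limma called 0 of the 44, as it did 0% of all genes, and at an unadjusted p under 0.05 the count was also 0.

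Ribosomal protein genes share many pseudogenes, so probe sets of mixed listing were set beside the Rpl3/Gm12816 one. There were 108 that list 1 of the other ribosomal protein genes together with further genes. Their adult transgenic minus control differences ran from -0.68 to 0.57 with a median of 0.04, and 0 of 108 reached the 0.92 of the Rpl3/Gm12816 probe set. Among the 79 of them with a mean log2 value over 10, the highest difference was 0.52. The probe set was picked with its value known, so this comparison is a description.

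With age, ribosomal protein genes moved downward where they were called. In transgenic hearts 0 of 44 were called higher and 10 lower in adults than in newborns, where 19.7% of all genes were called in each direction. In control hearts 0 were called higher and 12 lower, where 14.9% of all genes were called higher and 18.1% lower, 33% together. In transgenic hearts the total was 39.4%. The called ribosomal protein genes were 22.7% of the list in transgenic and 27.3% in control hearts, below both totals. The 22.7%, all lower, is near the 19.7% of all genes called lower in transgenic hearts. The median age difference of the 44 genes was -0.28 in transgenic and -0.37 in control hearts, against 0.09 over all genes. Rplp2, a stalk protein gene, was called in both, at -0.50 (SE 0.10, adjusted p = 0.00335) in transgenic and -0.48 (SE 0.11, adjusted p = 0.00885) in control hearts. Rpl4 was at -0.40 (SE 0.099, adjusted p = 0.00926) in transgenic and -0.49 (SE 0.11, adjusted p = 0.00678) in control hearts. Many of these genes are bright, with a median mean log2 value of 12.68, and the lowest was 2.8. Single arrays moved these counts. The count in transgenic hearts was 6 without any one transgenic newborn array and 16 without transgenic adult replicate 1. The count in control hearts was 0 without control newborn replicate 1, 2 without control newborn replicate 2 and 23 without transgenic adult replicate 3.

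Of 5 measured paralogues of other ribosomal protein genes, 0 were called between transgenic and control adults, where 7.09% of all genes were called and a list of 5 can show little, and 1 had an unadjusted p under 0.05. Rps4l, the paralogue of Rps4x, read 8.29, 8.44 and 9.01 in transgenic adults and 7.63, 8.03 and 8.31 in control adults, a difference of 0.59 (SE 0.20, adjusted p = 0.122) with overlapping groups. It fell with age, with adult minus newborn at -1.95 (SE 0.20, adjusted p = 4.45e-05) in transgenic and -2.63 (SE 0.23, adjusted p = 1.39e-05) in control hearts. Rpl22l1, the paralogue of Rpl22, also fell with age, at -0.53 (SE 0.18, adjusted p = 0.0373) in transgenic and -0.66 (SE 0.20, adjusted p = 0.0282) in control hearts, and lost this call in 7 of 21 alternatives in transgenic and 5 of 21 in control hearts, with adjusted p of up to 0.0952 and 0.125. Rps27l, Rpl39l and Rpl7l1 had adult transgenic minus control differences from -0.03 to 0.23.

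**Figure D2:**
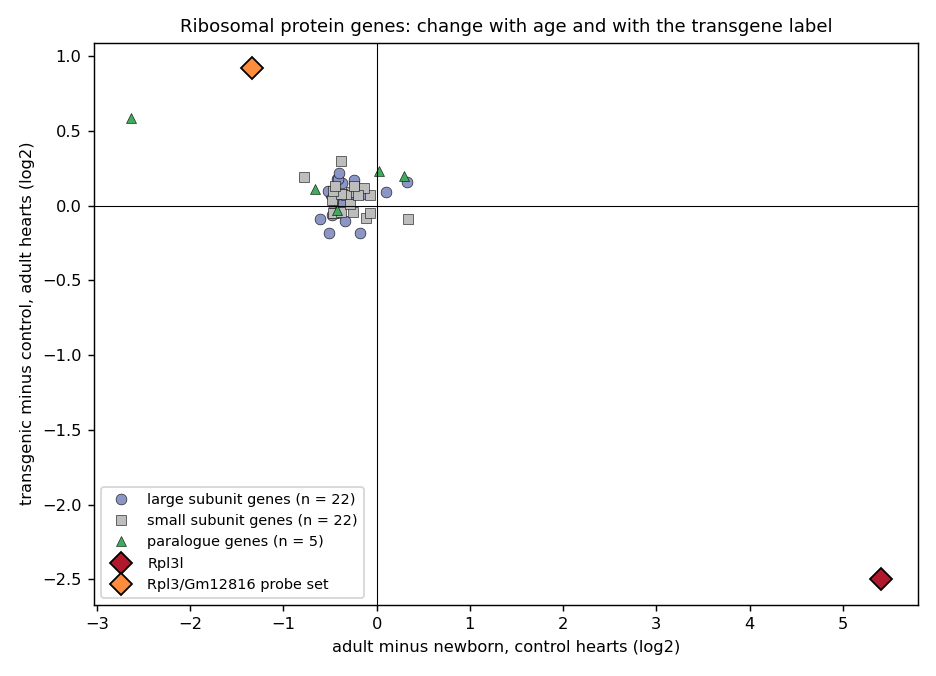
Each point is a gene, with its adult minus newborn difference in control hearts on the horizontal axis and its transgenic minus control difference in adult hearts on the vertical axis (both log2). Of 44 subunit genes, adult transgenic minus control differences lie between -0.19 and 0.30, with Rpl3l at -2.50 and the Rpl3/Gm12816 probe set at 0.92.

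Of 43 measured genes that handle RPL3 or build the large subunit, 0 were called higher and 1 lower in transgenic adults, that is 2.33% where 7.09% of all genes were called, with a median change of 0.08. The one that fell was Dkc1, which encodes the pseudouridine synthase of ribosomal RNA, at -0.76 (SE 0.17, adjusted p = 0.0232), a call lost in 3 of 21 alternatives, with adjusted p = 0.149 when only the 6 adult arrays were fitted. Grwd1, whose product binds RPL3 before assembly, differed by -0.03 (SE 0.15, adjusted p = 0.944), and Mettl18, whose product methylates RPL3, by -0.05 (SE 0.29, adjusted p = 0.956). Both Grwd1 and Mettl18 were named for their link to RPL3 after their values were seen. With age, 2 genes were called higher and 13 lower in transgenic hearts, and 0 higher and 13 lower in control hearts. These are 34.9% and 30.2% of the list, near the 39.4% and 33% of all genes called. Among those lower in both was the nucleolar protein gene Ncl, at -0.76 (SE 0.15, adjusted p = 0.00265) in transgenic and -0.89 (SE 0.17, adjusted p = 0.00228) in control hearts, and with its probe sets averaged adjusted p was 0.078 in transgenic and 0.0525 in control hearts.

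Of 15 genes for ribosomal RNA transcription, 0 were called higher and 1 lower in transgenic adults, 6.67% of the list where 7.09% of all genes were called. That gene was Polr1a, the largest subunit of RNA polymerase I, at -0.59 (SE 0.15, adjusted p = 0.0418). Polr1a lost this call in 14 of 21 alternatives, with adjusted p from 0.00937 to 0.292. Myc, a transcription factor that drives ribosome production, fell with age, at -1.77 (SE 0.29, adjusted p = 8.52e-04) in transgenic and -1.71 (SE 0.32, adjusted p = 0.00229) in control hearts.

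Among 40 translation factor genes, 2 rose and 0 fell in transgenic adults, 5% of the list where 7.09% of all genes were called, and the median change was 0.04. Eif4a1, the helicase of the cap-binding complex, read 11.67, 11.32 and 11.77 in transgenic adults, against 10.77, 11.00 and 10.75 in control adults. It rose by 0.74 (SE 0.13, adjusted p = 0.00604). Eef1a1, elongation factor 1 alpha of most tissues, read 13.31, 13.18 and 13.18 in transgenic adults, against 12.58, 12.78 and 12.76 in control adults, and rose by 0.52 (SE 0.098, adjusted p = 0.00938). For both genes the transgenic and control arrays did not overlap. With only the 6 adult arrays in the fit, adjusted p was 0.0736 for Eif4a1 and 0.102 for Eef1a1. With age, 1 translation factor gene was called higher and 17 lower in transgenic hearts, and 4 higher and 17 lower in control hearts, 45% and 52.5% of the list where 39.4% and 33% of all genes were called.

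Eef1a1 and its muscle and nerve partner Eef1a2 form a pair of the kind that Rpl3 and Rpl3l make. Eef1a2 read 11.28, 11.29 and 11.90 in transgenic adults, against 11.45, 12.16 and 12.53 in control adults, a difference of -0.55 (SE 0.25, adjusted p = 0.246) with overlapping groups. The within-array difference, Eef1a2 minus Eef1a1, was -1.73 ± 0.40 in transgenic adults and -0.66 ± 0.45 in control adults (SD, n = 3 each), and -2.87 ± 0.095 (n = 3) in transgenic and -2.88 ± 0.15 (n = 2) in control newborns. As with Rpl3l, transgenic adults lay between newborns and control adults.

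Other pairs of a muscle gene and its fetal or widely used partner were laid beside the Rpl3l difference in the same way. Of 20 listed pairs 17 were measured, and in 14 the muscle gene gained on its partner with age in control hearts. In adults the difference was lower in transgenic hearts for 17 of 17 pairs, without overlap of arrays for 11. Of single genes, 7.94% were lower and 10% higher without overlap. A pair can separate through either of its genes, so these shares are not those of pairs. No share over pair differences was computed for either count. In newborns the pair difference was lower for 12 of 17. The cardiac myosin pair, Myh6 minus Myh7, had an adult transgenic minus control difference of -2.78, and the sarcomeric actin pair, Actc1 minus Acta1, of -2.43. In both it was the partner that passed the test. Myh7 rose by 2.58 (SE 0.53, adjusted p = 0.0147, lost in 3 of 21 alternatives, with 0.108 when only the adult arrays were fitted) and Acta1 by 2.49 (SE 0.29, adjusted p = 7.22e-04), while Myh6 was at -0.20 (SE 0.11, adjusted p = 0.349) and Actc1 at 0.06 (SE 0.088, adjusted p = 0.783). The control adult arrays differed widely for Myh7, which read 12.86, 13.08 and 12.93 in transgenic adults and 12.10, 9.45 and 9.58 in control adults. Myh6 and Actc1 averaged 13.84 to 14.24 in every group, near the brightest values of the arrays. The actin pair did not gain with age in control hearts, where its age difference was -0.31. Its means were 0.69 in transgenic and 3.11 in control adults, against 2.56 in transgenic and 3.43 in control newborns. Transgenic adults thus lay below both newborn groups in this pair, unlike for Rpl3l. Without overlap were also the creatine kinase pair, Ckm minus Ckb, at -1.17, the hexokinase pair, Hk2 minus Hk1, at -1.08, and the troponin I pair, Tnni3 minus Tnni1, at -0.65. The troponin I pair changed with age almost as much in transgenic (7.80) as in control hearts (8.51). Tnni1 read 5.18 to 6.09 on adult arrays, where array medians were 5.12 to 5.18, so its -0.65 rests partly on dim values. The -3.42 of Rpl3l minus the Rpl3/Gm12816 probe set was larger than the difference of any of the 17 pairs. It was singled out with its size known. These pairs were listed with earlier results of the same arrays known.

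**Figure D3:**
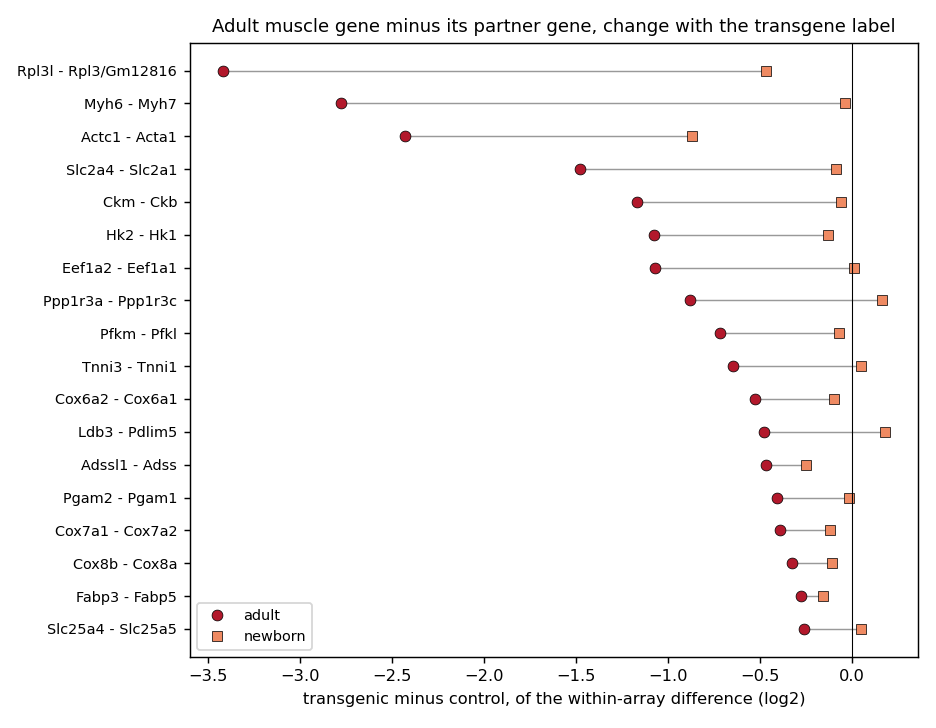
For each pair, the transgenic minus control change of the within-array difference (muscle gene minus partner, log2) in adults (circles) and newborns (squares). The adult values run from -3.42 for Rpl3l and the Rpl3/Gm12816 probe set to -0.26 for Slc25a4 and Slc25a5, all below 0.

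The genes whose values followed Rpl3l most closely were found by root mean square distance over 11 arrays, after centring each gene on its mean, and are described without a test. The nearest was Asb14, at a distance of 0.561 where the median over all genes was 2.36. Asb14 encodes a ubiquitin ligase adaptor and averaged 7.78 in transgenic adults, 9.78 in control adults, 5.16 in transgenic newborns and 5.28 in control newborns. Its relative Asb15 came next (0.656), followed by the carboxylesterase gene Ces1d (0.733), the tubulin gene Tuba8 (0.736), Smco1 (0.791) and the retinoid receptor gene Rxrg (0.904). Asb15 averaged 8.54 in transgenic and 10.83 in control adults, and Ces1d 6.83 in transgenic and 10.31 in control adults. With the sign of Rpl3l turned, the nearest were the mitosis genes Spc25 (0.566), Cks2 (0.687) and Anln (0.707), the smooth muscle genes Cnn1 (0.707) and Myl9 (0.718), and Gtsf1 (0.753). Nearest to the Rpl3/Gm12816 probe set were the calcium-binding protein gene Sri (0.109), Dact1 (0.114), Myo3b (0.127), Atp8b2 (0.127), Eif4a1 (0.129) and B4galt5 (0.133), where the median over all genes was 0.646. Sri averaged 9.95 in transgenic adults, 9.06 in control adults, 10.32 in transgenic newborns and 10.30 in control newborns.

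**Figure D4:**
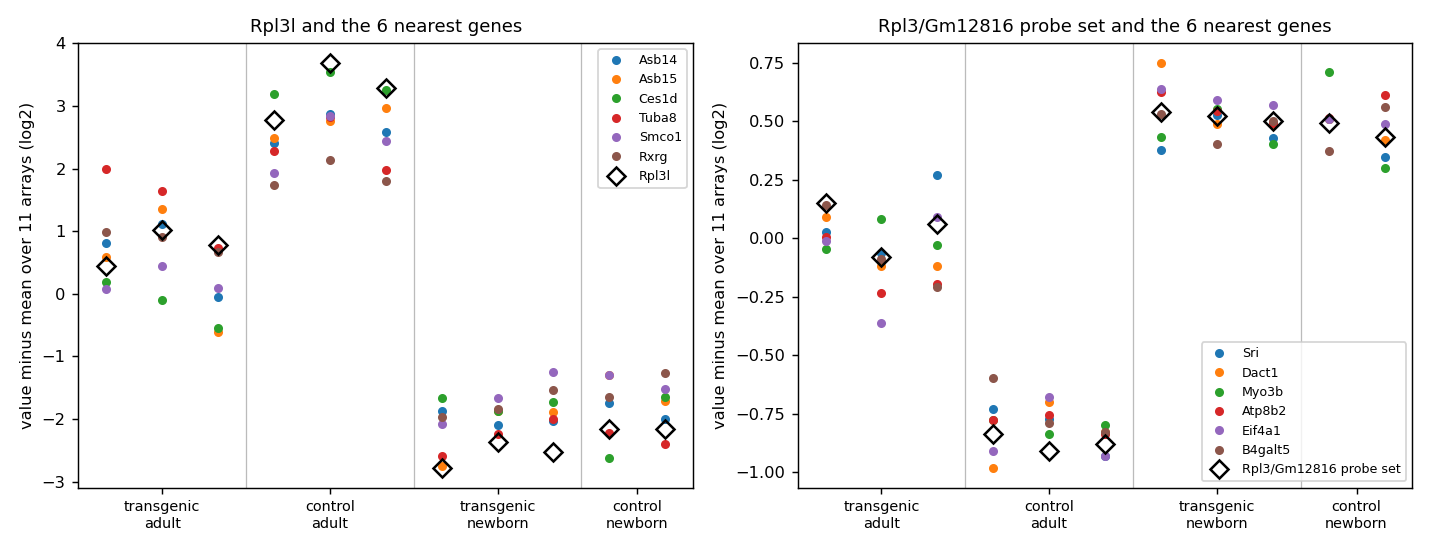
Log2 values minus the mean over 11 arrays, for Rpl3l (left) and the Rpl3/Gm12816 probe set (right) as open diamonds and for the 6 nearest genes of each as filled points, by array and group. In both panels the diamonds of transgenic adult arrays lie between those of the control adult and the newborn arrays.

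Genes beside Rpl3l and Rpl3 on their chromosomes were read as well. Of the 4 nearest measured genes on each side of Rpl3l, 0 of 8 passed between transgenic and control adults, where 7.09% of all genes did, and 2 had an unadjusted p under 0.05, with changes from -0.29 to 0.74. The adjacent gene Msrb1, which encodes a methionine sulfoxide reductase, had the widest change, at 0.74 (SE 0.21, adjusted p = 0.0639), opposite in sign to Rpl3l. Rps2, itself a ribosomal protein gene on the other side, differed by -0.08 (SE 0.098, adjusted p = 0.746). With age 3 of 8 neighbours rose and 0 fell in each genotype, where 19.7% of all genes rose in transgenic and 14.9% in control hearts. Msrb1 rose by 2.43 (SE 0.21, adjusted p = 1.25e-05) in transgenic and by 1.46 (SE 0.24, adjusted p = 9.61e-04) in control hearts. Around Rpl3, 0 of 8 neighbours passed in adults and 1 had an unadjusted p under 0.05, with changes from -0.27 to 0.31. With age 2 of these 8 rose and 2 fell in transgenic hearts, where 19.7% of all genes were called in each direction. In control hearts 2 rose and 1 fell, where 14.9% of all genes rose and 18.1% fell. The chromatin gene Cbx7 rose with age by 1.12 (SE 0.13, adjusted p = 7.19e-05) in transgenic and by 1.27 (SE 0.14, adjusted p = 7.26e-05) in control hearts. Mief1 fell, at -0.54 (SE 0.13, adjusted p = 0.00877) in transgenic and -0.55 (SE 0.15, adjusted p = 0.0158) in control hearts. It lost these calls in 2 and 4 of 21 alternatives.

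Markers of the cells in the ventricle were read beside these results. In bulk tissue, fewer cells of a type and less RNA per cell cannot be told apart. For comparison with the counts below, 4.16% of all genes were called higher and 2.93% lower in transgenic adults. The summed log2 level of heart muscle markers overlapped between adult groups, at 17.45 to 17.62 in transgenic and 17.52 to 17.64 in control adults. Of 18 markers 0 rose and 1, Nebl, fell, at -0.66 (SE 0.17, adjusted p = 0.0369), a call lost in 11 of 21 alternatives, with adjusted p of up to 0.424. Skeletal muscle, where Rpl3l is also used, had 2 of 18 markers higher and 0 lower, with a summed level of 12.58 to 12.93 in transgenic and 10.63 to 11.64 in control adults. Myl1, a myosin light chain gene, is the brightest part of that sum, at 12.41 ± 0.20 in transgenic and 10.30 ± 1.2 in control adults (SD, n = 3 each). Over the 18 skeletal markers the median change was -0.02, 8 were positive, and the mean level per array overlapped, at 5.36 to 5.55 in transgenic and 5.17 to 5.39 in control adults. Fibroblast markers rose for 4 of 12 and fell for 0, at 14.66 to 15.05 in transgenic and 13.76 to 14.49 in control adults. Macrophage markers rose for 3 of 12 and fell for 0, at 12.60 to 13.33 in transgenic and 12.42 to 12.73 in control adults. Endothelial markers rose for 1 of 10 and fell for 1, at 12.03 to 12.32 in transgenic and 12.04 to 12.12 in control adults. Of 4 atrial markers 1 rose and 0 fell, with a summed level of 14.09 to 14.51 in transgenic and 12.65 to 14.20 in control adults. The one that rose was Nppa, the atrial natriuretic peptide gene, by 2.35 (SE 0.19, adjusted p = 8.41e-05). The other 3 (Myl4, Myl7 and Sln) averaged 12.49 to 12.87 on newborn arrays. In adults they averaged 10.53, 6.59 and 6.52 in transgenic hearts, against 10.10, 10.38 and 12.24 in control hearts. The transgenic array with the highest of these averages had the lowest Rpl3l of its group, at 8.26, while the control array with the lowest, 10.10, had the lowest Rpl3l of its group, at 10.60. With age, macrophage markers rose for 11 of 12 in transgenic and 10 of 12 in control hearts, and 0 fell. Fibroblast markers rose for 2 and fell for 4 of 12 in transgenic, and rose for 1 and fell for 7 in control hearts. Heart muscle markers rose for 4 and fell for 1 of 18 in transgenic, and rose for 5 and fell for 0 in control hearts. Of all genes, 19.7% rose and 19.7% fell in transgenic, and 14.9% rose and 18.1% fell in control hearts. The part of these cells in the Rpl3l and Rpl3/Gm12816 differences was not tested.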

How the data were processed

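The log2 values were those deposited by the authors, and the submitters' processing notes name RMA, affy and limma, with no versions or order. Of 45101 probe sets, 34958 list 1 gene symbol, 932 several and 9211 none in the platform annotation given. Each of 18194 genes was read from its brightest probe set by mean over 11 arrays. limma 3.58.1 (R 4.3.3) fitted a group-means model over the 4 groups, 2-sided, with Benjamini-Hochberg adjustment over all genes and calls under 0.05. This fit was tested on simulated data.

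The members and lists were chosen with earlier results of these data known. Differences of Rpl3l and of the Rpl3 probe sets are therefore given with no test. Rpl3 has no probe set with a single symbol, so its planned values could not be made, and the brighter shared probe set, chosen after the values were seen, was described in its place. Named genes were the 6 nearest to each by root mean square distance, up to 4 members of each list with the smallest p per comparison, every measured paralogue, pair member and neighbour (4 on each side), and defining markers. Nearest genes were chosen for their pattern and have no test. Promoters and gene order came from RefSeq GRCm38.p6, where 1 of the 2 symbols matched a promoter. Alternatives changed the probe set rule, normalization, filter, variance model, array weights, 18S factor, replicate block and arrays used.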

Additional observations from a re-analysis of the deposited data

Results flagged for a closer look

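Nppa, the atrial natriuretic peptide gene, differed between ages in its genotype difference: transgenic minus control was 2.35 in adults and 0.24 in newborns, and the adult minus the newborn difference was 2.12 (SE 0.28, limma adjusted p = 0.00875 over 18194 genes). Adult arrays read 14.18, 14.05 and 14.06 in transgenic hearts, against 12.02, 11.21 and 12.01 in control hearts. All 3 transgenic adult arrays were higher. Newborn arrays read 13.83, 13.82 and 13.70 in transgenic hearts, against 13.55 and 13.54 in control hearts. These also did not overlap, and 11.1% of all genes were higher without overlap in newborns. Adult minus newborn was -1.80 (SE 0.21, limma adjusted p = 1.07e-04) in control and 0.31 (SE 0.19, adjusted p = 0.2) in transgenic hearts. The highest probe set of each array read 14.21 to 14.37, and whether this limited the newborn difference was not tested.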

How the results depend on the processing

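No difference of Rpl3l changed sign: leaving out single arrays gave -2.74 to -2.28 in adults and -0.50 to -0.30 in newborns for transgenic minus control, and the other 7 alternatives gave -2.59 to -2.49 in adults. Averaging all listed probe sets gave, in place of the Rpl3/Gm12816 probe set, 0.63 in adults, and age differences of -0.92 in transgenic and -1.49 in control hearts. The within-array difference, Rpl3l minus that average, then changed with age by 4.23 in transgenic hearts, while Rpl3l itself stayed at 3.31. Averaging also turned the age difference in control hearts to 0.09 for Brix1 and 0.00 for Rps4x, since it adds other probe sets. Ribosomal protein genes called between adult groups numbered 0 under the 21 alternatives in which they were counted, which leave out the test of every single-symbol probe set. Their age count in transgenic hearts was 16 with cyclic loess and 6 to 16 over single arrays left out; in control hearts it was 24 with array weights and 0 to 23. Genes called between adult groups numbered 373 with only the 6 adult arrays, 2625 with the 18S factor, 2183 without the 18S arrays, and 746 (without control adult replicate 2) to 2267 (without transgenic adult replicate 3). Genes called with age numbered 11269 in transgenic and 9349 in control hearts over every single-symbol probe set, and 2829 to 7430 in control hearts over single arrays left out. Genes whose genotype difference changed with age numbered 841 with array weights, 494 with the 18S factor, 711 without the 18S arrays, and 6 to 540 over single arrays left out. The labels do not pair the arrays, and replicate numbers were not treated as pairs in the main fit. Deviations of same-numbered adult arrays correlated at 0.31, -0.06 and 0.45, and those of differently numbered adult arrays at -0.42 to 0.31. The 0.45 belonged to replicate 3 of both adult groups, which stood apart in 18S. Same-numbered newborn arrays gave 0.18 and -0.15. With 2 control newborn arrays the deviations mirror each other, so these values cannot show pairing. With the replicate block, ribosomal protein genes called with age numbered 17 in transgenic and 7 in control hearts. Of 2372 recomputed values for 113 named results, 2134 kept their direction and side of the threshold, 236 lost their call and 2 reversed. The causes of these changes were not tested, except where fewer arrays or more probe sets enter by construction. The fit of 2 groups alone cannot give the change of the genotype difference with age. Brightness near the array maximum and values near the array median, with no detection calls, limit what the levels show.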
